A study of Mus musculus with 2 samples.

Results

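The regions described here are the peaks of 5-hydroxymethylcytosine (5hmC) in the first 3 Mb of assembled sequence next to the centromere of 18 mouse autosomes, chromosomes 1 to 19 except 14. A peak was a member if its midpoint lay between 3000000 and 6000000 on mouse build mm9, in which the assembled sequence of these chromosomes starts at 3 Mb. There were 2907 such peaks among 121661 in 2 lists: 1375 of 57827 in the list from cells with ascorbic acid (AA) and 1532 of 63834 in the list from cells without it. They were compared with the 52370 and 57510 peaks in the rest of the same chromosomes.

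The cells were 129SvEv mouse embryonic stem (ES) cells. In the AA group they had 100 µM AA, which is vitamin C, for 24 h; the label of the other sample names no incubation, and from the series' design it was taken as the sample without AA. Both groups had their 5hmC-bearing DNA tagged with biotin and pulled down with the same commercial kit, and each group had 1 library. No other allele or agent is named in the labels, and a peak list of DNA offers no check of the cell type. Each list carries the run name of the opposite sample in its header. The lists are called the AA list and the no-AA list only as recorded, and if the headers are right every difference between them changes sign. The libraries held 11907082 and 18398162 tags (aligned reads) after removal of duplicates, and since each group is a single library, replicate error is unknown and groups were not tested against each other. Intervals are 95% exact intervals and cover counting error only. For a median they give the uncertainty of the median over peaks or pairs, not the range of single values.

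Mouse chromosomes carry their centromere at one end. Next to it lie long arrays of satellite repeats, packed in heterochromatin and heavily methylated, which the genome assembly leaves as a gap at the start of each chromosome. The sequence after this gap holds ordinary genes as well as segmental duplications and stray satellite copies. 5hmC is made from 5-methylcytosine by the Tet dioxygenases, which are active in ES cells, and is known there chiefly from enhancers, gene bodies and other accessible DNA rather than from compact heterochromatin. AA is a reducing agent that supports Tet activity. The satellite arrays themselves lie outside the coordinates of both lists, and no mm9 sequence or gene annotation was used here, and peaks are given by position alone.

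The first question was how densely 5hmC peaks lie next to the centromeric end. Peaks reached up to the very start of the assembled sequence and were, pooled over chromosomes, slightly denser in the proximal 3 Mb than beyond it. The AA list had 25.5 peaks per Mb there (95% Poisson interval 24.1 to 26.8) against 23.4 in the rest (23.2 to 23.6), a ratio of 1.09 (1.03 to 1.15). The no-AA list had 28.4 (27.0 to 29.8) against 25.7 (25.5 to 25.9), a ratio of 1.10 (1.05 to 1.16). The covered share of the sequence was 2.90% against 2.80% in the AA list and 2.41% against 2.31% in the other. Median distances between neighbouring peaks were alike, at 22034 and 22161 bp in the AA list and 22084 and 21081.5 bp in the other.

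This surplus was not a property of the chromosomes in common. The AA density was below that of the rest of the same chromosome on 10 of 18 chromosomes and above it on 8, and the median of the 18 ratios was 0.959. With only the AA peaks past a p of 1e-10, 7 chromosomes lay below, and with only the first Mb, 8. The no-AA density was below on 8 and above on 10, with a median ratio of 1.12. So the pooled surplus of the AA list went with a median chromosome slightly under its own rest. Both lists lay above the rest on 7 chromosomes and below it on 7, and they fell on different sides on chromosomes 5, 15, 17 and 18.

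Chromosomes 2, 6, 7, 11, 12, 16 and 19 were the dense ones: on each of these 7 the interval of the ratio lay above 1 in both lists. Chromosome 11 had the most AA peaks, 109 or 36.3 per Mb (29.8 to 43.8), with 114 in the other list. Chromosome 6 had the most no-AA peaks, 118 or 39.3 per Mb (32.6 to 47.1), and 89 AA ones. Its ratio to the rest was 1.73 (1.42 to 2.07) in the no-AA list and 1.41 (1.13 to 1.75) in the other. Chromosome 19 followed with 105 and 108 peaks, chromosome 7 with 96 and 105, and chromosome 2 with 97 in each list. Chromosome 12 had 99 AA and 81 no-AA peaks, and chromosome 16 had 84 and 100. On chromosomes 7 and 19 the proximal 3 Mb held more peaks than 91.7% and 94.4% of the other 3-Mb windows of the chromosome, with the same percentages in both lists.

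Chromosome 3 was the sparse extreme. It had 38 AA peaks, or 12.7 per Mb (8.96 to 17.4), and 40 no-AA ones, or 13.3 per Mb (9.53 to 18.2). Its ratio to its own rest was 0.63 in both lists, with intervals of 0.44 to 0.86 and 0.45 to 0.86. Chromosome 10 had 54 and 66 peaks, with a ratio of 0.71 (0.53 to 0.93) in the AA list and an interval that reached past 1 in the other. Chromosomes 1 and 8, whose remaining sequence had the highest peak density of all 18, were below it here. Chromosome 1 had 22.3 AA and 29.3 no-AA peaks per Mb, against 27.4 and 32.9 in its rest. Chromosome 8 had 27.3 and 28.0, against 29.5 and 35.6, and its no-AA ratio of 0.79 (0.63 to 0.98) lay below 1 with its whole interval. Chromosome 4 had 57 and 65 peaks, chromosome 9 had 61 and 64, and chromosome 13 had 69 and 77, all 3 with ratios below 1 and intervals that included 1 in both lists.

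The spread among chromosomes was wider for these 3-Mb segments than for averages over the far longer rest. The densest proximal segment had 2.87 times the density of the sparsest in the AA list and 2.95 times in the other, against 1.52 and 1.68 times for the rest. A segment of 3 Mb holds far fewer peaks than a whole chromosome, so counting error has a larger part in this spread. The spread of other 3-Mb segments was not computed, so a wider spread is not shown to be particular to the centromeric end. At the median over chromosomes, the proximal segment held more peaks than 48.1% (AA) and 58.3% (no-AA) of the chromosome's other 3-Mb windows. The proximal density of a chromosome did not follow that of its rest: across the 18 chromosomes the Pearson correlation was 0.01 in the AA list and 0.02 in the other. The lists resembled each other in this respect, with correlations of 0.84 (Pearson) and 0.81 (Spearman) between their proximal densities. These correlations run over chromosomes of single libraries and describe these libraries only.

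**Figure D1:**
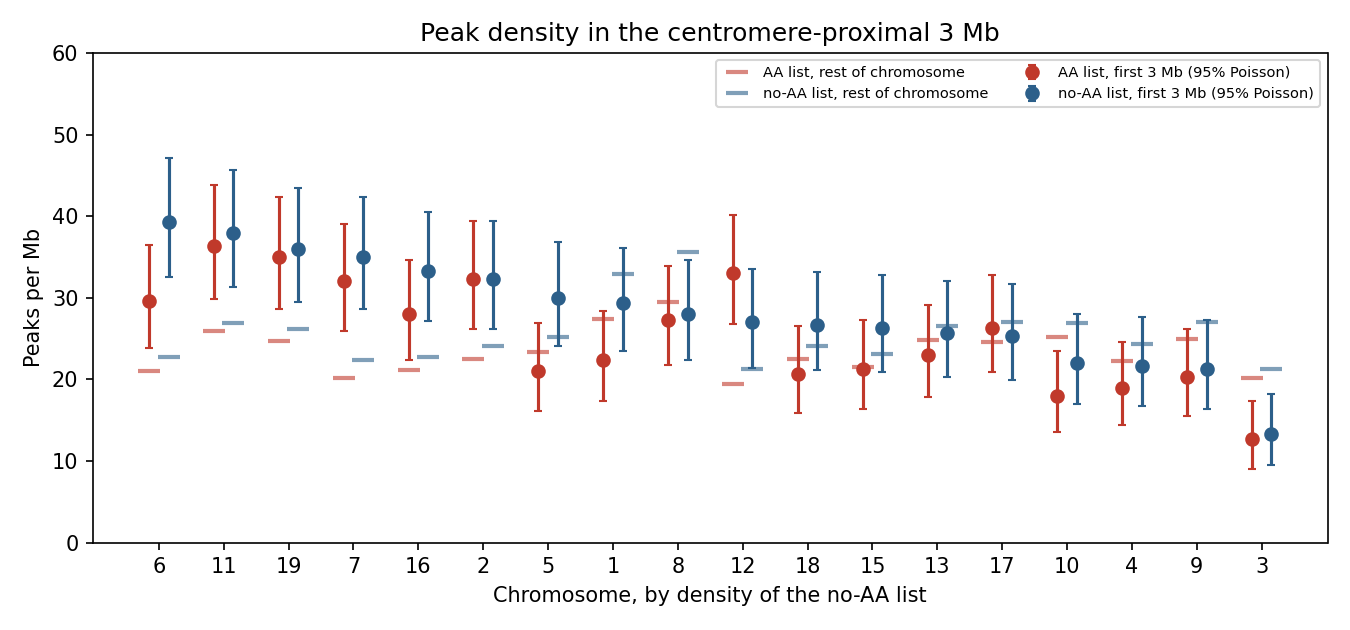
Peaks per Mb (vertical axis) in the first 3 Mb of each of the 18 chromosomes (horizontal axis), as points with 95% Poisson intervals for the AA (red) and no-AA (blue) list; short bars give the rest of the same chromosome. Chromosomes 6, 11, 19, 7, 16 and 2 at the left lie above their bars in both lists, and chromosome 3 at the right lies below them.

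Within the 3 Mb the third Mb held the fewest peaks in both lists, without a steady fall with distance. The first Mb of the 18 chromosomes held 471 AA and 536 no-AA peaks, the second 492 and 524, and the third 412 and 472. In bins of 0.5 Mb the no-AA list started at 32.6 peaks per Mb (28.9 to 36.5) and ended at 25.3 (22.2 to 28.8). In the AA list the highest bin was the fourth, at 28.1 (24.8 to 31.8), and the lowest the last, at 21.3 (18.4 to 24.6). From 3.5 to 5 Mb past the first assembled base the AA density stayed between 19.7 and 20.7 per Mb and the no-AA one between 20.6 and 22.6, below the values of the whole rest. Against the next 3 Mb alone the proximal surplus was therefore larger, with log2 ratios of 0.22 and 0.24 in place of 0.12 and 0.14. With a proximal segment of 5 Mb the log2 ratios were 0.00 and 0.02.

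**Figure D2:**
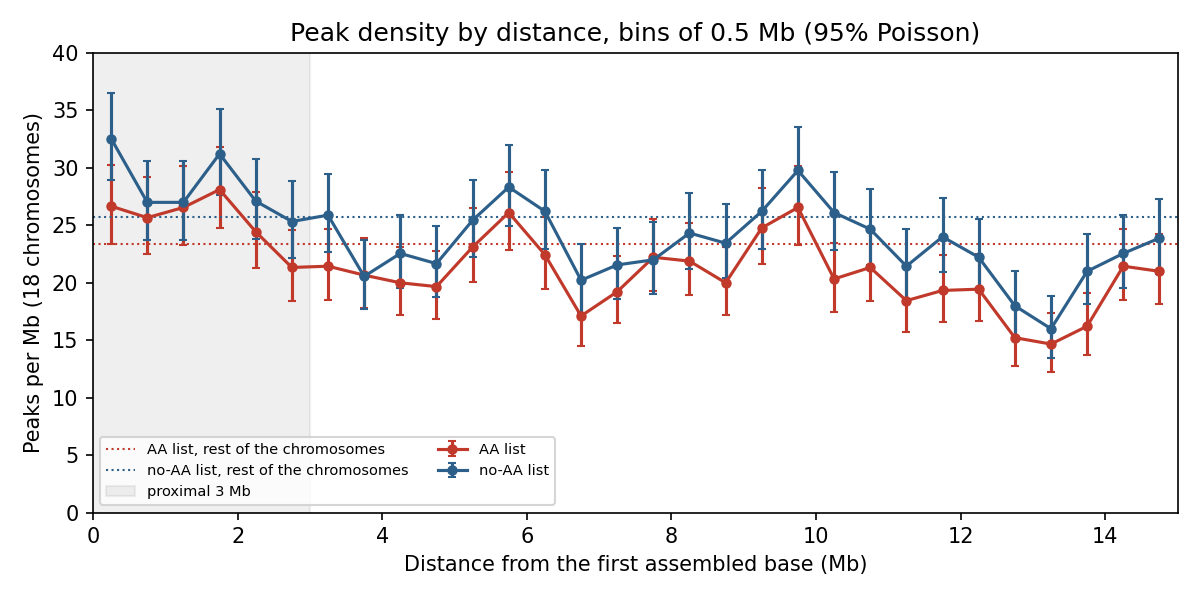
Peaks per Mb over the 18 chromosomes (vertical axis) in bins of 0.5 Mb by distance from the first assembled base in Mb (horizontal axis), with 95% Poisson intervals; dotted lines give the rest of the chromosomes and the grey area the proximal 3 Mb. The no-AA list is highest in its first bin, at 32.6 per Mb, and both lists dip below their dotted lines past the grey area.

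Single Mb windows covered a wide range. The fullest in both lists was 4 to 5 Mb on chromosome 7, with 45 peaks in each. The emptiest AA windows were 5 to 6 Mb on chromosomes 3 and 4, with 11 peaks each, where the no-AA list had 13 and 19. The emptiest no-AA window was 5 to 6 Mb on chromosome 8, with 9 peaks against 13 AA ones. That window followed 2 full ones on the same chromosome, with 43 and 32 no-AA peaks.

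The first peak of a chromosome began between 869 and 232045 bp from the first assembled base in the AA list, at a median of 32263 bp. In the no-AA list it began between 472 and 98749 bp, at a median of 18848 bp. It lay within 5 kb on 6 chromosomes in the AA list and on 5 in the other, and on 9 of 18 chromosomes the first peaks of both lists overlapped. The limit at 6 Mb separated like from like: the last peak inside had a median of 28.5 AA tags over the chromosomes and the first outside 28, and in the no-AA list the medians were 25 and 25.5.

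The second question was whether these peaks differed in kind. Proximal peaks were shorter and held fewer tags than those of the rest, but had a higher fold enrichment. The median length was 999 bp (970 to 1029) against 1038 bp (1033 to 1043) in the AA list, and 747.5 bp (731 to 757) against 783 bp (780 to 786) in the other. The median number of tags was 26 (24 to 27) against 28 in the AA list and 25 (25 to 26) against 28 in the other. Fold enrichment, the authors' ratio of a peak's tags to the caller's background within its own library, had a median of 8.02 (7.92 to 8.24) against 7.75 (7.71 to 7.78) in the AA list. In the no-AA list it was 7.345 (7.16 to 7.51) against 6.94 (6.93 to 6.97). The higher fold was not particular to the proximal segment. In the bins from 3.5 to 5.5 Mb past the first assembled base, median folds were 8.73 to 8.91 (AA) and 7.36 to 8 (no-AA). These lay above the proximal medians. The bins from 3 to 3.5 Mb (7.86 and 6.97) and from 5.5 to 6 Mb (7.49 and 7.12) lay below them. The background that the fold divides by is not given for each peak, so more fold with fewer tags does not show more 5hmC per site.

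At or above 10-fold enrichment were 326 proximal AA peaks, 23.7% (Clopper-Pearson 21.5% to 26.0%), beside 21.7% of all peaks of that list and 20.7% in the rest. In the no-AA list it was 190 peaks, 12.4% (10.8% to 14.2%), beside 10.4% of all peaks and 9.83% in the rest. Past a p of 1e-10 were 333 AA peaks, 24.2% (22.0% to 26.6%), beside 22.9% of all, and 306 no-AA ones, 19.97% (17.998% to 22.1%), beside 18.4% of all. In the rest these shares were 22.2% and 17.8%. With only peaks of at least 10-fold the proximal density surplus grew to log2 ratios of 0.32 and 0.48, and 5 and 4 chromosomes lay below their rest.

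The fold was not raised on every chromosome. Its proximal median was above that of the rest on 11 of 18 chromosomes in the AA list and on 12 in the other. Sparse chromosomes had high folds, as on chromosome 3, where the proximal medians were 10.6 and 8.78 against 8.24 and 7.41 in the rest. Chromosome 9 had 10.7 and 8.13 against 7.75 and 6.97. The dense segments of chromosomes 11 and 19 lay lower, at 6.79 and 5.68 on chromosome 11 and 6.31 and 6.20 on chromosome 19. Their peaks held more tags, with medians of 34 and 32 on chromosome 11 and 40 and 33.5 on chromosome 19, against 19 in both lists on chromosome 9. Density, tags and fold did not move together on all chromosomes. Chromosome 3 had medians of 28.5 and 26 tags, above the 26 and 25 of all proximal peaks. Chromosome 6, the densest of the no-AA list, had 24 and 27 tags, and its folds of 7.92 and 7.12 lay next to the 7.99 and 7.12 of its rest.

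The 5 peaks of most tags in each list stood close to the start of the assembled sequence. Tag-rich peaks lay along all of the 3 Mb but made up a larger share of the peaks in its first 200 kb. Of the proximal peaks, 26 AA and 29 no-AA ones held 100 tags or more. Each count is 1.89% of the proximal peaks of its list, beside 2.28% and 1.7% of all peaks and 2.34% and 1.74% in the rest. They carried 12.6% and 12.4% of the proximal tags, whereas such peaks carried 9.28% and 7.81% of the tags in the rest. Without 2 neighbouring peaks of chromosome 11 the AA share was 8.77%, below the 9.28% of the rest. Without the 3 tag-rich no-AA peaks of the same place the no-AA share was 8.88%, still above the 7.81% of the rest. Peaks were removed from the proximal set only, so its shares could only fall. In the first 200 kb 6 of 97 AA and 10 of 126 no-AA peaks were tag-rich, against 1.56% and 1.35% of the proximal peaks past it. Past the first Mb lay 16 and 10 tag-rich peaks, 1.77% and 1.00% of the peaks there. The first 200 kb held 97 AA peaks, or 7.05% of the proximal ones, with 12.7% of their tags, and 126 no-AA peaks, or 8.22%, with 14.1%. Its peak density was 26.9 per Mb (21.9 to 32.9) in the AA list and 35.0 (29.2 to 41.7) in the other.

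**Figure D3:**
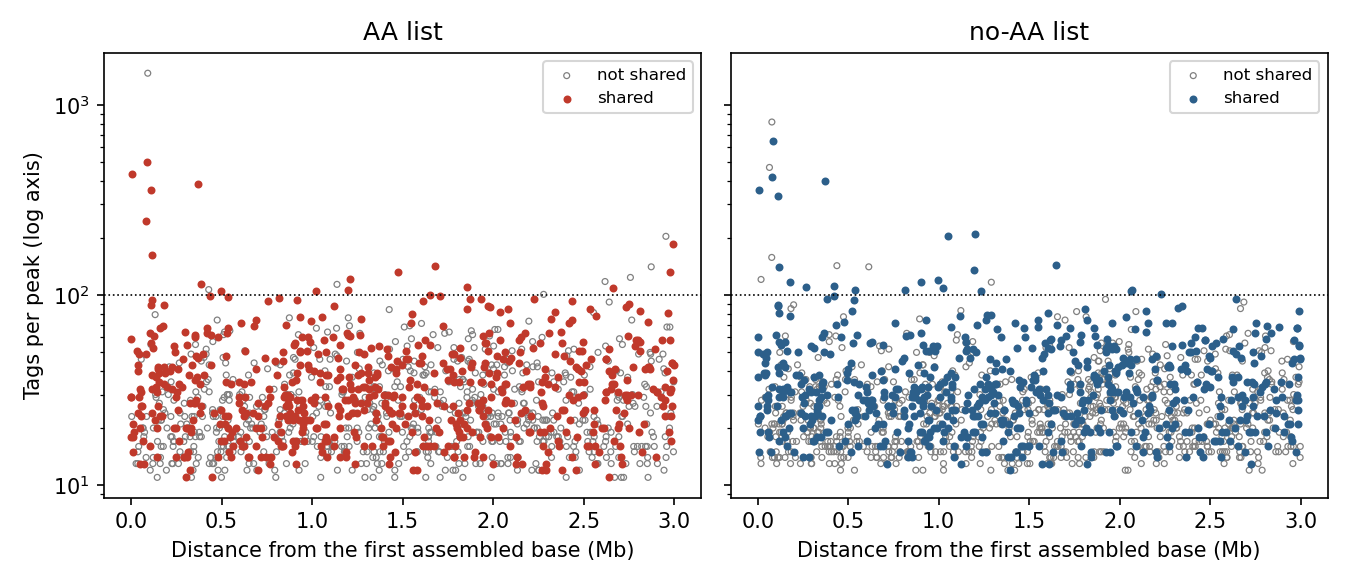
Tags per peak (vertical log axis) against distance from the first assembled base in Mb (horizontal axis) for each proximal peak of the AA (left) and no-AA (right) list; filled points overlap a peak of the other list, open points do not, and the dotted line marks 100 tags. The 5 peaks of most tags in each list, from 356 to 1472 and from 398 to 815 tags, lie within 0.4 Mb of the start.

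The largest tag counts were on chromosome 11. In the AA list a peak at 3088485 to 3095979 held 1472 tags (1398 to 1549) in 7495 bp, and its neighbour at 3083602 to 3088475 held 505 tags. In the no-AA list 3 peaks stood there. They were 3063679 to 3066241 with 470 tags, 3076198 to 3080354 with 815 tags (760.0 to 873) and 3083504 to 3086741 with 651 tags. Of these 5 peaks only the AA one at 3083602 and the no-AA one at 3083504 overlapped each other, so the peak of most tags in each list counts as unshared. Their fold enrichment was moderate, at 7.19 and 5.99 in the AA list and 5.00, 3.21 and 5.53 in the other. Together the 8 AA and 11 no-AA peaks in the first 200 kb of chromosome 11 held 2091 and 2182 tags, which is 35.0% and 30.5% of the tags of peaks in that stretch over all 18 chromosomes.

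The other peaks of most tags each overlapped a peak of the other list. On chromosome 18 a peak at 3004674 to 3006723 held 432 AA tags. On chromosome 17 a peak at 3080228 to 3083097 held 417 no-AA tags. On chromosome 13 a peak held 383 AA tags (3371827 to 3372997) and 398 no-AA tags (3371976 to 3373037). This pair packed 0.327 and 0.375 tags into each bp. A density of over 0.25 tags per bp occurred in 1 AA and 2 no-AA proximal peaks, beside 0.0138% and 0.0188% of all peaks. The rule of 1 tag per position can hold down counts this dense, and by how much was not tested. Without an input library the part of the tags that comes from 5hmC was not tested either.

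The third question was whether the same places were enriched in both lists. Of the proximal AA peaks, 663 overlapped a no-AA peak by at least 1 bp, 48.2% (45.5% to 50.9%), beside 47.5% of all peaks of that list and 46.9% in the rest. Of the no-AA ones, 680 were shared, 44.4% (41.9% to 46.9%), beside 43.6% of all peaks and 43.2% in the rest. Both proximal intervals include the values of the rest. Sharing rose with the strength of a peak as it did elsewhere. From the weakest class (p from 1e-05 to 1e-06) to the strongest (p below 1e-15) it went from 32.5% (27.9% to 37.4%) to 94.9% (89.2% to 98.1%) in the AA list. In the other list it went from 27.4% (23.5% to 31.5%) to 96.5% (90.0% to 99.3%). With the rest weighted to the proximal mix of p classes, its shares became 47.5% and 44.4%, next to the proximal 48.2% and 44.4%.

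**Figure D4:**
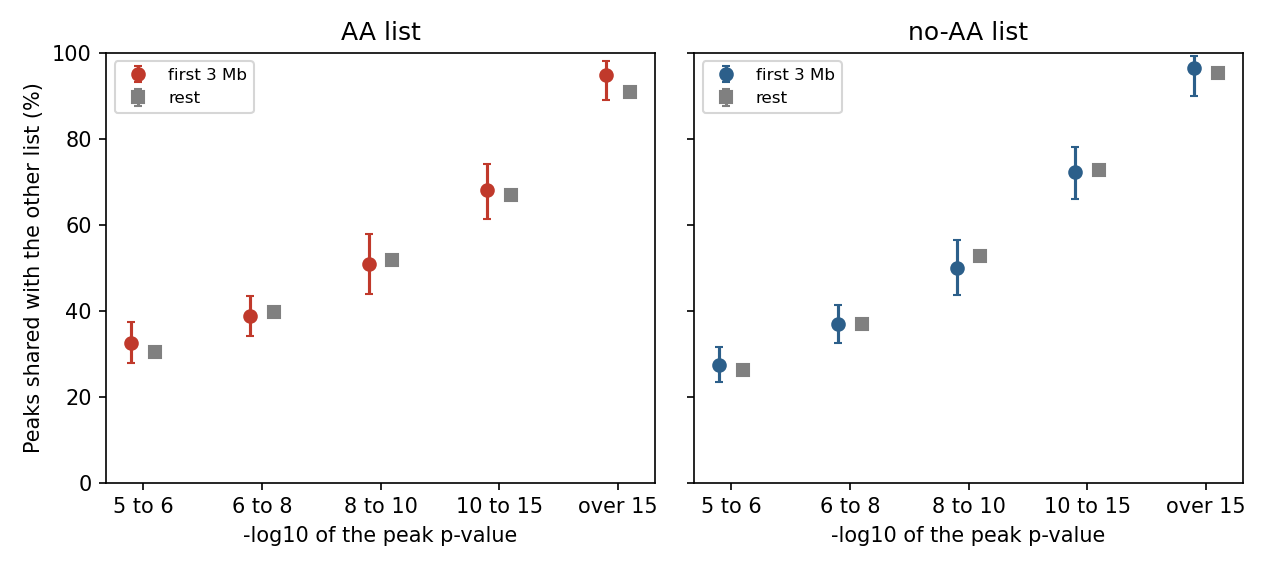
Percentage of peaks that overlap a peak of the other list (vertical axis) by class of −log10 p (horizontal axis) in the AA (left) and no-AA (right) list, for the first 3 Mb (circles) and the rest (squares), with Clopper-Pearson intervals. The circles rise from 32.5% to 94.9% and from 27.4% to 96.5%, close to the squares in each class.

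Sharing differed from chromosome to chromosome. Chromosome 3, the sparsest, had the highest shares, 65.8% (48.6% to 80.4%) of its AA and 67.5% (50.9% to 81.4%) of its no-AA peaks. Chromosome 12 had the lowest AA share, 34.3% (25.1% to 44.6%), next to 45.3% in its rest, and it also had more AA than no-AA peaks. The lowest no-AA share was that of chromosome 18, at 35.0% (24.7% to 46.5%). By distance, 59.8% (49.3% to 69.6%) of the AA peaks in the first 200 kb were shared and 50% (41.0% to 59.0%) of the no-AA ones. In the third Mb the shares were 45.1% and 40.3%.

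Peaks without a counterpart also included strong ones. A p of at most 1e-10 was held by 75 AA and 64 no-AA proximal peaks that overlapped nothing in the other list. That is 22.5% (18.1% to 27.4%) of the 333 AA and 20.9% (16.5% to 25.9%) of the 306 no-AA proximal peaks past this p, beside 23.9% and 20.7% of all such peaks. In the rest the shares were 24.7% and 20.9%, inside both proximal intervals. By fold enrichment the AA ones were led by chromosome 16 (3541762 to 3542736), with 28 tags (18.6 to 40.5) and 16.04-fold. Chromosome 1 followed with 2 peaks, at 4469174 to 4470460 (35 tags, 15.88-fold) and at 5092619 to 5093397 (22 tags, 15.84-fold). Chromosomes 2 (3716732 to 3717633) and 3 (4861190 to 4861916) also reached 15.84-fold. The no-AA ones were led by chromosome 4 (3092051 to 3092607), with 21 tags (13.0 to 32.1) and 16.90-fold. Next came chromosome 13 (5243795 to 5244556) with 31 tags and 15.95-fold. Chromosomes 15 (4874480 to 4875123), 9 (5955900 to 5956686) and 17 (5774491 to 5774763) followed at 15.12-fold, 15.12-fold and 14.93-fold. The tags of the other library at such a place are not in the lists, so a missing counterpart is a region not called, and no ratio can be given.

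The fourth question was whether AA went with a different number or level of peaks next to the centromere. The AA list had 0.898 times as many proximal peaks as the other (0.834 to 0.966), and 0.911 times as many in the rest (0.900 to 0.921). The proximal interval includes the value of the rest. The AA peaks covered 1.57 Mb against 1.30 Mb here and 62.8 Mb against 51.8 Mb in the rest. Its peaks were longer by 1.34 times at the median here and 1.33 times in the rest, while the caller's own fragment lengths differed 1.39 times. The part of fragment length and depth in these ratios was not tested. Among peaks of at least 10-fold the ratio of numbers turned to 1.72 (1.43 to 2.06) here and 1.92 (1.86 to 1.98) in the rest. Fold is the authors' value within each list, so the same cutoff need not mean the same strength in both. These 2 ratios therefore do not show that the AA library had more strong peaks.

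Fewer AA than no-AA peaks were found on 15 of 18 chromosomes. Chromosomes 12 and 17 had more and chromosome 2 had equal numbers. The lowest ratio was on chromosome 5, 63 against 90 peaks or 0.70 (0.50 to 0.98), then on chromosome 6 with 0.75 (0.57 to 1.00). The highest was on chromosome 12, 99 against 81 peaks or 1.22 (0.90 to 1.66). On 0 of 18 chromosomes did the interval exclude the ratio of the pooled rest, so these counts do not separate any single chromosome from it.

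Tags could be compared directly in 644 proximal pairs of peaks that overlapped one to one. Tag density is given in tags per kb and 1000000 kept tags. Its median was 2.27 in the AA and 1.96 in the no-AA library, and 2.32 and 2.00 over the 24098 pairs of the rest. On the log2 scale the median ratio was 0.21 (0.17 to 0.25) here and 0.22 (0.21 to 0.22) in the rest. It was above 0 in 459 pairs, 71.3% (67.6% to 74.7%), beside 75.2% of all pairs and 75.4% in the rest. Both of these values lie above the proximal interval. The sign hangs on the scaling: without scaling the proximal median was -0.41, and scaled to the tags inside peaks it was -0.31.

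A density over 2-fold higher in the AA library was found in 12 pairs, 1.86% (0.966% to 3.23%), beside 1.47% of all pairs. A density over 2-fold lower was found in 0 of 644 pairs, beside 0.0223% of all pairs. The approximate 1-sided upper limit of this share, 3 over 644, is 0.466% and is not an exact interval. In tags per whole peak, 142 pairs or 22.0% (18.9% to 25.5%) were over 2-fold higher, beside 20.5% of all, and 4 were over 2-fold lower, beside 0.408% of all. The density ratio rose with strength, from 0.14 in the weakest of 5 classes by p to 0.40 (0.31 to 0.44) in the strongest, and in the rest from 0.14 to 0.41. In tags per peak the weakest and strongest class lay closer together, at 0.53 and 0.60.

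**Figure D5:**
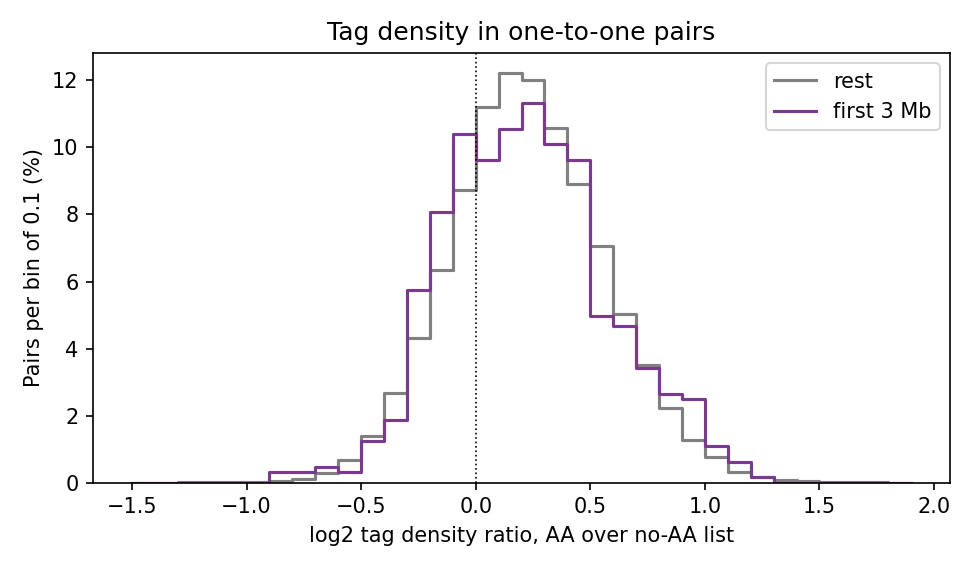
Share of one-to-one pairs in percent (vertical axis) by log2 ratio of tag density, AA over no-AA and scaled to kept tags (horizontal axis, bins of 0.1), for the 644 pairs of the first 3 Mb (purple) and the 24098 of the rest (grey). Both outlines lie mostly right of 0, with medians of 0.21 and 0.22.

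Pairs in which either library had 30 tags or more were ranked by their density ratio. Chromosome 3 came first (5435187 to 5436731), where 74 AA tags stood against 18 no-AA tags (log2 ratio 1.29, 0.53 to 2.12). Second was a pair on chromosome 1 (4677657 to 4679918), where 142 AA tags stood against 58 (1.18, 0.73 to 1.65). Log2 ratios of 1.17, 1.16 and 1.12 belonged to pairs on chromosomes 7 (3240684 to 3241723), 3 (4818018 to 4819146) and 5 (3181356 to 3181957). The chromosome 5 pair had 42 AA tags in 602 bp and 78 no-AA tags in 1577 bp, so that in tags per peak its log2 ratio came to -0.27 (-0.84 to 0.29). For the first 4 the ratio in tags per peak had the same sign as that in density.

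The lowest ratio was on chromosome 5 (4052327 to 4054767), where 77 AA tags stood against 206 no-AA ones (-0.85, -1.24 to -0.46). There the peaks had nearly equal lengths, 2441 and 2350 bp, and tags per peak gave -0.79. Chromosome 1 (5062124 to 5063308) was next, at 34 against 105 tags (-0.83, -1.43 to -0.26). Chromosomes 12 (3036299 to 3037460), 4 (4817227 to 4817960) and 7 (4150941 to 4152015) followed at -0.72, -0.71 and -0.69, each with an interval that included 0. All 10 were picked as extremes of 398 pairs with enough tags, a choice the intervals do not allow for.

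The pair of highest mean fold enrichment was on chromosome 12 (3109307 to 3111758), at 29.54-fold with 356 AA tags and 39.05-fold with 333 no-AA ones. Its peaks were 2452 and 998 bp long, so tag density gave a log2 ratio of -0.57 (-0.79 to -0.35) and tags per peak one of 0.72 (0.50 to 0.94). The second was the chromosome 13 pair at 3371827, at 18.26-fold and 21.67-fold, with 0.43 (0.23 to 0.64) in density and 0.57 in tags per peak. The third lay on chromosome 1 (5098513 to 5099023), with folds of 21.37 and 14.23. A pair on chromosome 6 (4271501 to 4272429) had folds of 18.50 and 14.39. The fifth, again on chromosome 1 (4580994 to 4581961), had 19.80 and 12.12. The last 3 held 24 to 49 tags per library, against 333 to 398 in the first 2 pairs. Each fold belongs to its own list and serves only to rank pairs.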

How the data were processed

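Per the labels' protocols, ES-cell DNA was sheared and its 5hmC-bearing fragments were enriched. The submitters' processing notes name BWA 0.5.9-r16, MACS 1.4.2 and the build mm9. Each list was called on 1 library with no control, at a p cutoff of 1e-05 and with a regional background over 10000 bp, per the file headers. At most 1 tag of 101 bp was counted at a position, again per the headers; how reads that map to several places were treated is not given in the sources used here. The deposited tag counts are whole numbers, not scaled to library size. The deposited score is 10 times the −log10 p-value, and the deposited fold enrichment is a ratio to the caller's background; both are the authors' values within each library. Positions are counted from 1.

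Peaks were matched with bedtools 2.31.1 over the whole lists before the proximal ones were taken (Python 3.11.15, pandas 2.3.3, NumPy 2.4.6, SciPy 1.17.1). Alternatives that drop peaks by a cutoff filtered both lists before this matching. The rest ran from 6 Mb to the end of the last peak of either list. Pairs were proximal if both midpoints were. Intervals were Poisson for counts, Clopper-Pearson for shares, conditional binomial for ratios and order statistics for medians. Without molecular identifiers, tags may include copies of 1 molecule. Code was tested on simulated data. The members and the rules were chosen with earlier results of these data known. The rule for named regions took every chromosome by its counts, the fullest and emptiest 1-Mb window, the 5 one-to-one pairs of highest mean fold, the 5 pairs of highest and the 5 of lowest density ratio where either library had 30 tags or more, and in each list the 5 unshared peaks of highest fold and the 5 peaks of most tags. Alternatives were stricter cutoffs, other overlap rules, scalings and segment lengths, leaving out each chromosome and exchanging the lists.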

Additional observations from a re-analysis of the deposited data

How the results depend on the processing

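Log2 ratios are AA over no-AA, or proximal over rest. Peak number, -0.16, was 0.12 for peaks past a p of 1e-10 and 0.78 for those of at least 10-fold. Both p and fold are the authors' values within each list, so the same cutoff need not mean the same strength in both. Taking each list for the sample its header names gave 0.16 for number, -0.27 for covered length and -0.21 for tag density in pairs. Past a p of 1e-10, density over the rest became 0.25 (AA) and 0.31 (no-AA), chromosomes below the rest 7 (AA, in place of 10) and 4 (no-AA, in place of 8), shared percentages 44.7 and 49.0, tag density 0.34, median folds 9.90 and 9.02 and covered length 0.38. With at least 10-fold these were 0.32 and 0.48, 5 and 4 chromosomes, 19.9% and 34.7%, 0.16, 11.9 and 11.1, and 1.05. For both cutoffs the lists were filtered before matching, so these shares and pairs count only counterparts past the same cutoff. Against the whole other list, 22.5% (AA) and 20.9% (no-AA) of the proximal peaks past a p of 1e-10 had no counterpart. Shared percentages were 41.1 and 36.9 with 50% reciprocal overlap, and 47.0 (no-AA) within 500 bp. Tag density in pairs became 0.53 in tags per peak, -0.41 without scaling and -0.31 scaled to tags in peaks; a scaling moves all pairs alike. The first 1 Mb gave 8 chromosomes below the rest, 51.0% shared and a median fold of 8.37 in the AA list. Density over the rest was 0.00078 and 0.019 for 5 Mb, 0.22 and 0.24 against the next 3 Mb and, as a median over the 18 chromosomes (chosen after seeing the data), -0.061 in the AA list. Exchanging the lists only changes signs, and keeping only peaks of at least 10-fold raises the median fold by construction. For the other changes the cause was not tested. Covered length had no interval of its own, so the interval of peak number, moved to its value, served as its main interval. The other 43 values stayed within the main interval or, for numbers of chromosomes, within 1.5 times the main number, among them the 7 and 8 AA chromosomes above and the removal of the first 200 kb, of tag-dense peaks and, chosen after seeing the data, of 5 peak-free stretches of over 1 Mb from the rest. Leaving out each chromosome kept number between -0.19 and -0.14, density between 0.08 and 0.16 (AA) and 0.10 and 0.18, shared percentages between 47.6 and 49.3 and between 43.8 and 45.0, tag density between 0.20 and 0.22, median folds between 7.94 and 8.22 and between 7.25 and 7.50, and covered length between 0.24 and 0.29. Density per assembled base was not run, since no mm9 genome was used here. No paired analysis was possible because there was a single library in each group. With 1 library in each group, the part of depth in which weak peaks were called was not tested.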
